A study of Mus musculus with 2 samples.

Results

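The genes described here encode the signalling chains of the T cell receptor complex and the proteins that act first when it is engaged. They are the CD3 chains Cd3e, Cd3d, Cd3g and Cd247, the co-receptors Cd4 and Cd8a, the kinases Lck and Zap70, and the adaptor Lat. Members were all probe sets whose only gene symbol in the platform annotation was one of these 9 names. This gave 12 of the 12488 probe sets on the array, and they covered 8 genes, because Lck was not analysed here. No further probe set named a member together with another gene.

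RNA abundance was measured on 2 one-colour oligonucleotide arrays hybridised with purchased total RNA of mouse spleen. Per the labels both arrays used RNA of 1 catalogue number, and they form 1 group with no treatment, mutation or control. Strain, age and the number of animals behind the RNA are not given in the sources used here. Nothing in the labels says that the arrays came from separate animals, so the spread between them may be technical, and no p-value was computed.

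The T cell receptor recognises peptide held by MHC molecules, but its antigen-binding chains have almost no part inside the cell. Signals pass through the CD3 chains and the zeta chain encoded by Cd247, whose tyrosine motifs are phosphorylated by Lck, a kinase that Cd4 and Cd8 bring to the complex. Zap70 then docks on these motifs and phosphorylates Lat, a membrane adaptor on which enzymes of calcium, Ras and NF-kB signalling assemble. In the spleen T cells gather around small arteries in the white pulp, beside B cell follicles. Some of these genes also serve other cells: natural killer cells use Cd247, Zap70 and Lat, platelets and mast cells use Lat, and certain dendritic cells carry Cd4 or Cd8a. In whole-tissue RNA, fewer cells of a type and less RNA per cell cannot be told apart.

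Signals were intensities on a linear scale, as deposited. A gene or probe set is called bright where each array read it above that array's 60th percentile, a cutoff of 342 for array 2 and 346 for array 1. The background was set by 15 control probe sets, those for the bacterial transcripts dap, lys, phe, thr and trp, which mouse RNA lacks. These 15 are called the bacterial controls below. The highest of them, called the background limit below, read 76.2 on array 2 and 95 on array 1. A gene's value is that of its brightest probe set. Probe sequence and transcript abundance both set the brightness, so no gene is ranked against another by level. Of the B cell receptor genes 8 of 8 were bright, against 45.2% of all named genes. These genes do not tell spleen from other tissues rich in B cells, so the spleen label itself was not tested. Transcripts typical of the neighbouring pancreas were bright too. The elastase Cela1 gave 8920 on array 2 and 8839 on array 1, and the chymotrypsinogen Ctrb1 gave 25030 and 23276. The source of these transcripts was not tested.

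Bright signals were found for 7 of the 8 measured genes, where 45.2% of all 8251 named genes were bright. Cd247 was the exception. The median signal of the 8 genes was 699.95 on array 2 and 638 on array 1, against 312.9 and 318.5 over all named genes. Counted by probe set, 9 of 12 were bright, against 38.9% of the 10833 single-gene probe sets. On both arrays 10 of 12 passed the background limit, against 67.2% of single-gene probe sets. Under a stricter cutoff, the 75th percentile, 4 of the 8 genes were bright, against 28.5% of all genes. At the 50th percentile 7 were, against 55.7%, and at the background limit 8, against 73.9%. Where a gene's probe sets were averaged 6 were bright, against 38.3% of all genes.

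The genes of 3 CD3 chains lie side by side on chromosome 9 in the RefSeq annotation of GRCm38.p6, in the order Cd3g, Cd3d and Cd3e with no gene listed between them. All of them were bright on both arrays. Their upstream sequences are shown to place these neighbours of 1 locus; the arrays measured transcripts and not promoter activity. Each run covers bases 250 to 53 before the annotated start, 5′ to 3′ on the strand of the gene, from RefSeq in the GRCm38.p6 build. Capitals mark a match to the ETS core.
Cd3g chr9:44980484-44980681 (minus strand): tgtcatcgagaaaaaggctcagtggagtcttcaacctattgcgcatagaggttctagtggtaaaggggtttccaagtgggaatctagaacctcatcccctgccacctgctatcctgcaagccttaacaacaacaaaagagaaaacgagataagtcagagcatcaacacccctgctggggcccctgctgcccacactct
Cd3d chr9:44981536-44981733 (plus strand): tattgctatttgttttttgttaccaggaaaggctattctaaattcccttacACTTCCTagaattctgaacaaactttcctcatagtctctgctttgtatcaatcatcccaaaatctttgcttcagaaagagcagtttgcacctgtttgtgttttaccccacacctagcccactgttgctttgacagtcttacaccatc
Cd3e chr9:45009664-45009861 (minus strand): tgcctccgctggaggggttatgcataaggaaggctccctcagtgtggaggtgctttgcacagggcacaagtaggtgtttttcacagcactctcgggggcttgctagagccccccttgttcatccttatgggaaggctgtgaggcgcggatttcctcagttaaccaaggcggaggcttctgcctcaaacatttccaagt
The ETS core was searched as AGGAAGT or its reverse complement ACTTCCT. It was found 1 time in the Cd3d window and in neither other one, and 5.59% of all 32851 windows of 198 bases held it. A RUNX core, TGTGGT or ACCACA, was found in none of the 3 windows and in 11.4% of all windows. A TATA box, TATAAA or TTTATA, was also found in none of them and in 9.08% of all windows. Across the 11 windows of the 8 members that have one, the ETS core was found in 2 (Cd3d and Lck), the RUNX core in 2 (Lck and Zap70) and the TATA box in 0. No match overlapped another motif in the sequences shown. A match describes letters in the window and does not show a binding site.

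Among the CD3 chains, Cd3e (probe set 102971_at) gave 1224.0 on array 2 and 1155.4 on array 1, a mean of 1190 ± 48.5 (SD, n = 2 arrays here and below). The epsilon chain it encodes pairs with the delta and the gamma chain and is needed for the receptor to reach the cell surface. The arrays differed by 0.08 on the log2 scale, array 2 minus array 1 after centring on the median of bright probe sets, and 61.6% of all 4708 bright probe sets lay further apart. Cd3g (100001_at), the gamma chain, gave 828.5 on array 2 and 667.4 on array 1. This was the widest gap among the CD3 genes that were bright, at 0.31 on the log2 scale, and 12.9% of bright probe sets lay further apart.

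Cd3d encodes the delta chain and was read by a pair of probe sets that disagreed. The first (92683_at) gave 571.4 on array 2 and 608.6 on array 1, a mean of 590.0 ± 26.3. The second (161863_r_at) gave 11.5 on array 2 and 6.0 on array 1, below the median bacterial control of 22.9 and 20.6. The suffix _r_at marks relaxed rules of probe selection. The level of Cd3d therefore rests on the first probe set.

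Cd247 encodes the zeta chain, which carries most of the tyrosine motifs of the complex. Its brighter probe set (102287_at) gave 215.6 on array 2 and 242.5 on array 1, a mean of 229 ± 19.0. Both values lay above every bacterial control and below the brightness cutoff, at 0.630 of it on array 2 and 0.700 of it on array 1. The other (102288_at) gave 67.4 on array 2 and 46.6 on array 1, under the background limit each time, so it has only an upper bound here. Neither Cd247 probe set carries a suffix for several targets. Cd247 passed neither the 60th nor the 75th percentile cutoff on either array. Its brighter probe set passed the 50th on array 1 alone.

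The co-receptors mark the helper and the cytotoxic lineage of T cells. Cd4 (103480_at), which binds MHC class II, gave 966.6 on array 2 and 1011.2 on array 1, a mean of 989 ± 31.5. Cd8a (102975_at), which binds MHC class I, gave 567.6 on array 2 and 536.7 on array 1, a mean of 552 ± 21.8. The SD was 3.19% of the mean for Cd4 and 3.96% for Cd8a. Both genes were bright on both arrays, and the centred log2 differences were -0.06 and 0.08. These are levels of different probe sets, so they give no ratio of helper to cytotoxic cells. Cd8b1, which encodes the partner chain of Cd8a, gave 1199.5 on array 2 and 888.0 on array 1, a wider gap of 0.44, from a probe set with the suffix _s_at.

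Zap70, the kinase that docks on phosphorylated CD3 and zeta chains, was read by 3 probe sets, and all of them were bright on both arrays. The brightest (93662_s_at) gave 993.9 on array 2 and 1115.2 on array 1, a mean of 1055 ± 85.8. The next (93661_at) gave 505.2 on array 2 and 553.1 on array 1. The dimmest (93663_r_at) gave 369.8 on array 2 and 479.4 on array 1, and on array 2 it stood at 1.08 of the cutoff. All 3 were lower on array 2, with log2 differences of -0.16, -0.13 and -0.37. They read the same gene in the same RNA, so they are not independent replicates. The suffix _s_at marks probes that can match several transcripts.

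Lat (102228_at), the adaptor that Zap70 phosphorylates, gave 499.2 on array 2 and 508.8 on array 1, a mean of 504 ± 6.79. Its log2 difference of -0.03 was the smallest among the 9 bright probe sets of the complex. Of all bright probe sets 86.7% lay further apart.

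Across the 9 bright probe sets the log2 difference ran between -0.37 and 0.31, with a median of -0.06, against 0 over all bright probe sets by construction. Array 2 was higher for 3 of them and array 1 for 6, and those 6 include the 3 probe sets of Zap70. Their pooled SD between arrays was 0.131 (log2), against 0.152 over all bright probe sets. With values floored at the 20th percentile of each array, 0 of the 12 probe sets differed by more than 1.5-fold. The share was 13.2% of single-gene probe sets, or 1.52% of bright ones. The 12 mix bright and dim probe sets, so neither share matches them. The dim Cd3d probe set lay below the floor on both arrays, so it could not be counted as different. No test across samples is possible in 1 group of 2 arrays, and the members' agreement is described by these values alone.

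**Figure D1:**
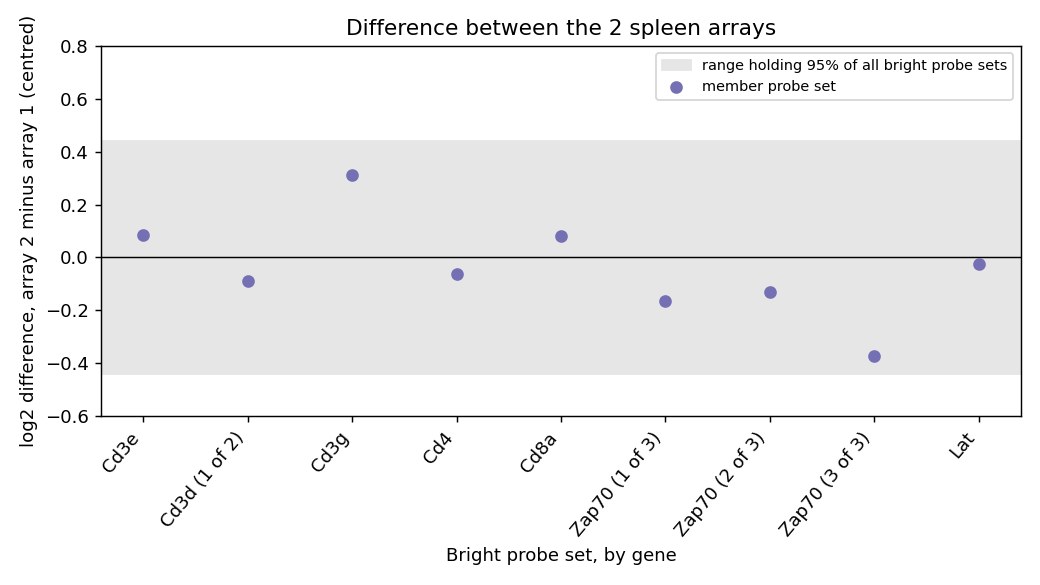
Centred log2 difference between the arrays, array 2 minus array 1 (vertical axis), for the 9 bright probe sets by gene. The grey band holds 95% of all bright probe sets, which differed by less than 1.36-fold; all 9 points lie inside it, with Cd3g at 0.31 and the dimmest Zap70 probe set at -0.37 nearest to its edges.

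The antigen-binding chains themselves were looked at after the values had been seen, since the constant region genes Trac, Trbc1, Trbc2, Trdc and Trgc1 were not analysed here. Probe sets named for 1 variable segment of a receptor chain numbered 12, and 3 of them were bright, against 38.9% of all single-gene probe sets. For the alpha chain 2 of 6 were bright, both annotated to Trav9d-3: the first (97944_f_at) gave 3624.1 on array 2 and 4154.7 on array 1, and the second (97945_at) gave 3467.9 and 2771.1. For the beta chain 1 of 4 was bright, a probe set annotated to Trbv1 (93105_s_at), at 5668.5 on array 2 and 6368.7 on array 1. Another Trav9d-3 probe set (93224_at) gave 110.9 on array 2 and 89.5 on array 1, and the other Trbv1 probe set (94726_at) gave 242.5 and 222.0. Probe sets of the same segment thus disagreed. The parts of the transcripts that they read are not given in the sources used here, so these signals are not assigned to 1 segment. Both gamma chain probe sets passed the background limit and were not bright: Trgv1 gave 237.2 on array 2 and 245.1 on array 1, and Trgv4 gave 161.3 and 133.4.

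Of 36 measured genes that work with the complex, 26 were bright, beside the 45.2% over all genes. They were counted in lists of partners, of downstream kinases, adaptors and enzymes, and of brakes. Among the surface partners 6 of 7 were bright. Cd8b1 is given above. Cd2, an adhesion receptor, gave 561.9 on array 2 and 808.0 on array 1, with a centred log2 difference of -0.52. Cd28, the main costimulatory receptor, was the partner that was not bright, at 337.3 on array 2 and 409.4 on array 1. It passed the cutoff on array 1 alone.

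Of the downstream kinases, adaptors and enzymes 12 of 18 were bright, beside 45.2% of all named genes. Fyn, a Src family kinase related to Lck, gave 887.1 on array 2 and 952.8 on array 1. Lcp2, the adaptor SLP-76 that joins Lat, gave 1552.9 on array 2 and 1475.1 on array 1. Of the 6 that were not bright, Txk, a Tec family kinase, gave 380.2 and 324.1 and passed the cutoff on array 2 alone. Plcg1, the phospholipase that binds Lat, gave 284.4 on array 2 and 246.4 on array 1. Rasgrp1, which activates Ras, and Ppp3cb, a catalytic subunit of calcineurin, lay above the bacterial controls, at 291.7 and 160.4 on array 2 and at 288.8 and 224.7 on array 1. The adaptor Grap2, which links Lcp2 to Lat, gave 26.4 on array 2 and 21.4 on array 1, and the adaptor Nck1 gave 15.2 and 16.1. Both lay below the background limit, and each was read by 1 probe set.

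Of the brakes of receptor signalling 8 of 11 were bright, beside 45.2% of all named genes. Csk, the kinase that keeps Src family kinases inactive, gave 1834.3 on array 2 and 1755.5 on array 1. Another Csk probe set (162504_at) was not bright, at 83.1 on array 2 and 31.5 on array 1. Pag1, a membrane adaptor that holds Csk, gave 712.2 on array 2 and 675.8 on array 1. Its other probe set (162437_at) gave 8.4 and 9.1, below the background limit, so the brightness of both genes rests on 1 probe set each. Ptpn6, the phosphatase SHP-1, gave 2345.2 on array 2 and 2285.2 on array 1, from a probe set with the suffix _s_at. SHP-1 also acts in B cells and myeloid cells. The inhibitory receptors Ctla4 and Pdcd1, which T cells induce on activation, were not bright, at 75.5 and 69.0 on array 2 and at 102.1 and 88.0 on array 1. Neither passed the background limit on both arrays. Sit1, an adaptor that dampens the receptor, gave 339.5 on array 2 and 392.5 on array 1 and passed the cutoff on array 1 alone.

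Probe sets of the same gene often disagreed, in the pathway and across the array. Of the 11 pathway genes with several single-gene probe sets, 10 had a bright one and one that was not, against 42.5% of the 2073 such genes on the array. Counting genes with at least 1 bright probe set, these were 10 of 10 in the pathway and 74.6% of 1182 on the array. Ptprc, the phosphatase CD45 that activates Lck, was bright by a probe set (101048_at) at 3181.2 on array 2 and 2451.3 on array 1. The probe set 101298_g_at was bright too, at 1527.7 on array 2 and 1549.5 on array 1, whereas 101297_at gave 2.7 and 2.5. Genes with 1 probe set, such as Grap2, Nck1 and Lat, have no such check.

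Markers of the other cells that use some of these genes were listed beside them, and 45.2% of all named genes were bright. Of 6 natural killer markers 1 was bright, the receptor chain Klrd1 at 358.5 on array 2 and 390.0 on array 1, and their summed signal was 1183 on array 2 and 1198 on array 1. The activating receptors Klrk1 and Ncr1, the granule proteins Prf1 and Gzmb and the adaptor chain Fcer1g were not bright, with values between 113.5 and 255.7 on array 2 and between 77.2 and 293.2 on array 1. The Fcer1g probe set used has the suffix _f_at, a mark for several targets, and passed the background limit on array 2 alone. Of 8 platelet and mast cell markers 1 was bright, the platelet glycoprotein Gp9 at 401.1 on array 2 and 549.5 on array 1, and their sum was 1475 and 1588. The platelet chemokine Pf4 gave 76.1 on array 2 and 46.8 on array 1, and the platelet glycoprotein Gp5 gave 216.7 and 72.7. Neither was bright, nor were Cpa3, Mcpt4, Fcer1a and Hdc, genes of mast cells. Pf4, Mcpt4 and Fcer1a lay below the background limit on both arrays. Kit, a growth factor receptor of mast cells and blood progenitors, gave 289.5 on array 2 and 455.7 on array 1 and passed the cutoff on array 1 alone.

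Of 8 dendritic and myeloid markers 7 were bright, beside 45.2% of all named genes. Their sum was 15926 on array 2 and 16157 on array 1. The largest values in it were those of Lyz2, at 7941.5 and 8115.9, and Csf1r, at 3641.3 and 3521.4. Sums over different probe sets give no ratio between cell types. The integrin Itgax gave 871.1 on array 2 and 838.6 on array 1. The growth factor receptor Flt3, from a probe set with the suffix _s_at, gave 981.1 and 1124.3. Batf3, a factor of cross-presenting dendritic cells, gave 637.3 and 597.7. Itgam was not bright, at 172.4 on array 2 and 170.2 on array 1. How much of the signal of Cd4, Cd8a, Cd247, Zap70 or Lat came from cells other than T cells was not tested. Of 4 markers of immature thymocytes 0 were bright: Rag1, Rag2, Dntt and Ptcra. The Rag1 probe set used, with the suffix _r_at, gave 389.7 on array 2 and 137.4 on array 1 and passed the cutoff on array 2 alone. Dntt, from a probe set with the suffix _f_at, gave 114.9 on array 2 and 214.0 on array 1. Ptcra gave 68.7 and 84.5 and Rag2 gave 8.2 and 27.5, all below the background limit.

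The B cell receptor has its own counterparts of these proteins, which the same RNA also held. Cd79a and Cd79b, the signalling chains that take the place of CD3, gave 10870.5 and 7092.4 on array 2 and 10333.1 and 7231.5 on array 1. Cd22, an inhibitory co-receptor, gave 1192.2 on array 2 and 1260.5 on array 1, from a probe set with the suffix _s_at. Syk, the relative of Zap70 in B cells and myeloid cells, gave 4414.3 on array 2 and 3941.2 on array 1. Blnk, an adaptor of the B cell receptor, gave 2428.4 on array 2 and 2054.4 on array 1, from a probe set with the suffix _g_at. Median signal over the 8 B cell genes was 2605 on array 2 and 2460 on array 1. Since the probe sets differ, these levels give no ratio of B to T cells.

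**Figure D2:**
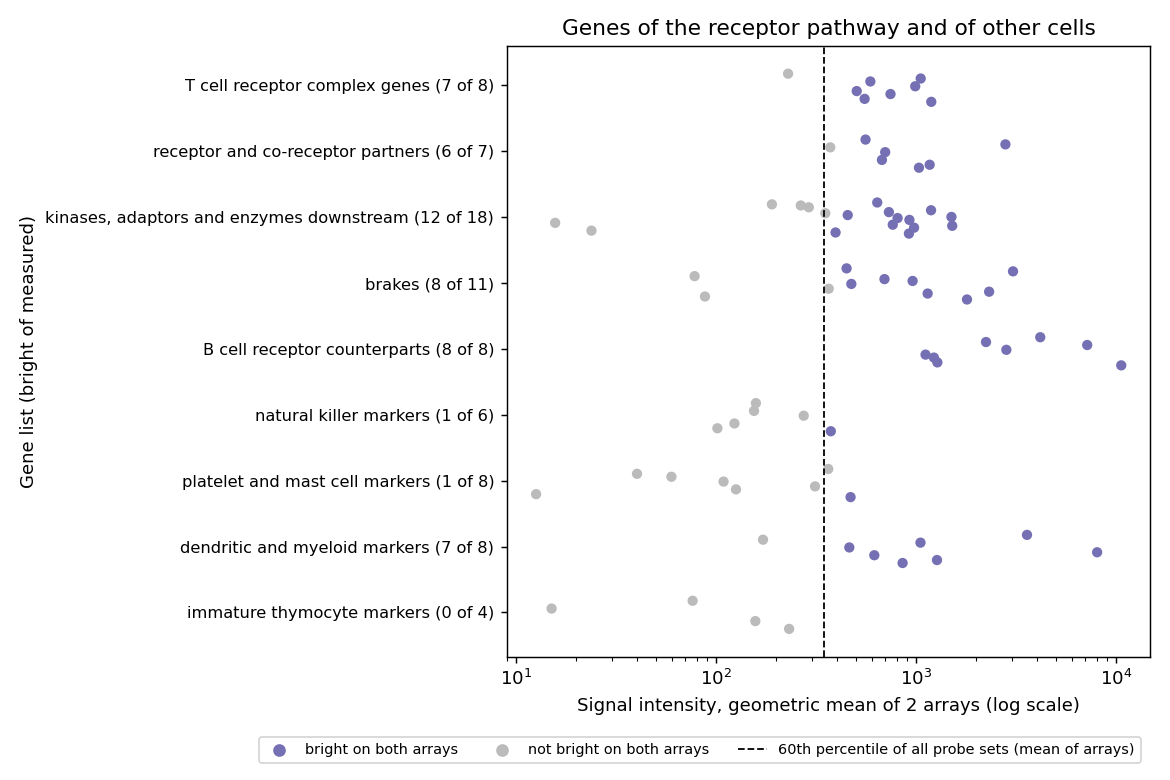
Signal intensity of each measured gene (horizontal log axis, geometric mean of the 2 arrays), grouped by list down the page, with the number of bright genes of those measured. Purple points were bright on both arrays; all 8 B cell receptor genes and 7 of 8 genes of the T cell receptor complex were, as were 7 of 8 dendritic and myeloid markers, 1 of 6 natural killer markers and 0 of 4 immature thymocyte markers, beside 45.2% of all named genes.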

How the data were processed

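Signal intensities of 12488 probe sets on 2 mouse spleen arrays were used as deposited by the authors. Near-equal medians, 226.4 on array 2 and 226.65 on array 1, show a common scale; the software, detection calls and genome build are not given in the sources used here. Precision is limited by there being 2 arrays. The 66 AFFX control probe sets stayed out of percentiles and counts. Gene names came from the platform annotation, with 10833 probe sets naming 1 gene. Sequences came from RefSeq (GRCm38.p6).

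For differences, intensities were floored at the 20th percentile of their array (41.8 on both), put on the log2 scale and centred. Pooled SDs come from these differences: the square root of their mean square over 2. All 9 members were named with every probe set; of other lists, the first 3 measured genes and every gene not bright. The members and lists were chosen with earlier results of these data known. Ptprc, Syk, Blnk, Lyz2, Csf1r, the pancreas genes and the receptor segments were picked once values were known. The calculation was tested on simulated data. Alternatives changed cutoff, normalization, floor, pseudocount, probe set choice or array. Python 3.11.15, numpy 2.4.6, pandas 2.3.3 and matplotlib 3.10.9 were used.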

Additional observations from a re-analysis of the deposited data

How the results depend on the processing

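An alternative value was called moved beyond the spread of the arrays or, for counts, by over 1.5 times. Of 62 alternative values 5 moved. For single genes, 21 could not move by construction: the level of a gene on 1 array, and the average of a single probe set. Counts of bright genes or of probe sets above controls could only rise at a lower limit or on 1 array alone. Their ceilings lay within 1.5 times, so these could not be called moved either and are no sign of stability. The 7 of 8 bright genes of the complex became 4 of 8 with the cutoff at the 75th percentile, against 28.5% of all named genes. They were 6 of 8 where a gene's probe sets were averaged, which moved the mean log2 signal of Cd3d to 7.29, against 9.20. Each array alone gave 7 of 8, against 47.6% of all genes. Averaging also moved Cd247 to 6.82, against 7.84, and Zap70 to 9.27, against 10.04. Without a floor, 1 probe set differed by more than 1.5-fold, the dim one of Cd3d, against 0 with it. The 26 of 36 bright pathway genes became 19 with the cutoff at the 75th percentile, against 28.5% of all named genes. At the background limit they were 32 of 36, against 73.9% of all named genes. Where a gene's probe sets were averaged they were 21 of 36, against 38.3%. The median log2 difference of the bright probe sets lay between -0.07 and -0.03 under the 5 alternatives run for it. No paired analysis was possible because the arrays form 1 group. Below the background limit, signal cannot be told from background. On both arrays this limits Cd247's second probe set, Cd3d's second, Pag1's second, Grap2 and Nck1. It also limits the Ptprc probe set 101297_at, Pdcd1, Pf4, Mcpt4, Fcer1a, Ptcra and Rag2.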
